A study of Mus musculus with 10 samples.

Results

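The matrix metalloproteinases (MMPs), the ADAMTS proteases with their catalytically inactive ADAMTS-like relatives, and the tissue inhibitors of metalloproteinases (TIMPs) were examined in adult mouse hearts. Members were taken by name alone, as every gene in the count table whose symbol began with Adamts, began with Mmp and a digit, or was Timp1 to Timp4. This gave 51 of the 24537 genes in the table: 23 MMPs, 19 ADAMTS proteases, 5 ADAMTS-like genes and 4 TIMPs. Bulk RNA was sequenced from the hearts of 5 control and 5 iSOD2 mice, all 6 weeks old. Both genotypes carried 1 copy of the reverse tetracycline transactivator at Rosa26 (Rosa26-rtTA2+/-), which is active in most cell types, and both were exposed to doxycycline chow in utero only. iSOD2 mice also carried 1 copy of a doxycycline-responsive short hairpin RNA against Sod2, inserted at the Col1a1 locus (TRE-SOD2-shRNA+/-), which the controls lacked (TRE-SOD2-shRNA-/-). Litter A gave 2 mice of each genotype and litter B gave 3 of each. The controls were 3 males and 2 females and the iSOD2 mice 2 males and 3 females, so sex and litter overlapped in part, with 3 males and 1 female in litter A and 2 males and 4 females in litter B. Each mouse is called by its genotype and its number in the labels.

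MMPs are zinc-dependent endopeptidases that cleave collagens, gelatin and other extracellular proteins, and most are made as inactive pro-enzymes that are secreted or held at the cell membrane. ADAMTS proteases also depend on zinc and carry thrombospondin repeats that anchor them in the matrix, where different members cleave proteoglycans such as versican and aggrecan or trim the propeptides of fibrillar procollagens. ADAMTS-like proteins keep the repeats without the catalytic domain, and several bind fibrillin microfibrils. TIMPs block the active site of MMPs, and TIMP3, which stays bound to the matrix, also inhibits several ADAMTS and ADAM proteases. In the heart these enzymes and inhibitors set the turnover of the interstitial collagen network.

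The members fell into differently built promoters. Of the 51 members, 36 had at least 1 start in the RefSeq promoter set (GRCm38.p6), giving 39 windows of the 250 bases before a start. The motifs searched on both strands were the GC box GGGCGG, the TATA box TATAAA, the AP-1 motif TGANTCA and the E-box CACGTG (matches of different motifs may share end letters). The GC box was in 51.3% of the members' windows and in 32.7% of all 32851 windows of that length, the TATA box in 25.6% and 12.4%, the AP-1 motif in 20.5% and 6.75%, and the E-box in 5.13% and 6.02%. The AP-1 motif was found in 8 members, and all 8 were among the 10 MMP genes that lie side by side on chromosome 9. None of those 10 had a GC box, which 20 of the other 26 members had, and their windows had a median GC content of 40.2% against 64.4%. The windows of Mmp3, encoding stromelysin, and Mmp13, encoding a collagenase, are shown for that cluster. Those of Timp3, the member called between genotypes, and of Adamtsl2 and Adamtsl5, which differed between litters in opposite directions, are shown for the others. Each reads 5′ to 3′ on the strand of its gene, and capitals mark matches to the AP-1 motif, the TATA box and the GC box on either strand.
Mmp3 (chr9:7445572-7445821, + strand): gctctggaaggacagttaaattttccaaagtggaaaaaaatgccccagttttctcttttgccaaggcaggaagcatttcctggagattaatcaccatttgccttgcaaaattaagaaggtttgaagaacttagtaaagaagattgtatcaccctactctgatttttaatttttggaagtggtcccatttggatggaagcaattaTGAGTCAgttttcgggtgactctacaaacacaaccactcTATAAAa
Mmp13 (chr9:7272264-7272513, + strand): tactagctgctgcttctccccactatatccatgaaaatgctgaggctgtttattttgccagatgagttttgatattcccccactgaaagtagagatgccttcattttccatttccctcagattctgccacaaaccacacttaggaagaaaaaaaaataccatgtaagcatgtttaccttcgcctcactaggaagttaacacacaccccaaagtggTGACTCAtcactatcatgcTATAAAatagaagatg
Timp3 (chr10:86300162-86300411, + strand): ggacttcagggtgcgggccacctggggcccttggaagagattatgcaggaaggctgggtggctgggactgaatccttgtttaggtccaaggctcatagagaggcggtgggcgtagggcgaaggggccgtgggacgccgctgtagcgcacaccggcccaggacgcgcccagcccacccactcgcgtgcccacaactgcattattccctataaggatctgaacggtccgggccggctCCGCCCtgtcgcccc
Adamtsl2 (chr2:27079129-27079378, + strand): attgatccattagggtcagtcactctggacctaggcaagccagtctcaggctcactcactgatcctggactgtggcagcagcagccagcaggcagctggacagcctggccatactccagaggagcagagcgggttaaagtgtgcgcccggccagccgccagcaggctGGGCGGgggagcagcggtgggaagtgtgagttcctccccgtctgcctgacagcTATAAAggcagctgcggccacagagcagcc
Adamtsl5 (chr10:80348449-80348698, - strand): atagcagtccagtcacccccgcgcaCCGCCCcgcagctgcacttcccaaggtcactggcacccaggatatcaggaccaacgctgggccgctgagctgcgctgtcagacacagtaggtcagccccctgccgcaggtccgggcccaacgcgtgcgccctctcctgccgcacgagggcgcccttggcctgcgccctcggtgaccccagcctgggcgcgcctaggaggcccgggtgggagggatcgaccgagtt
A motif match is a description of these letters and no factor binding was measured.

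Levels are normalized counts, which are counts divided by a size factor for each library. Differences between members are given per kilobase of exon. Timp3 was the most abundant member, at 1003 ± 231.6 normalized counts per kilobase (SD, n = 10 hearts). It was followed by Mmp2, gelatinase A, at 699.3 ± 55.4, by the membrane-bound Mmp15 at 602.9 ± 37.1, by Timp2, an inhibitor that also takes part in activating pro-MMP2, at 465.5 ± 45.7, and by Adamtsl5, a microfibril-associated gene, at 346.1 ± 40.1. Each of these 5 means was separated from the next by more than the SDs of both genes added together, and each step was seen in 9 or 10 of the 10 hearts. Then came 9 members whose neighbours in the order were not separated in this way, from Adamtsl4 at 269.4 ± 21.7 through Adamts1, Timp4, Adamts9, Adamtsl2, Adamts10, Adamts7 and Adamts2 to Adamts5 at 121.6 ± 16.2. Timp4 varied most among them, at 230.8 ± 122.8 per kilobase.

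**Figure D1:**
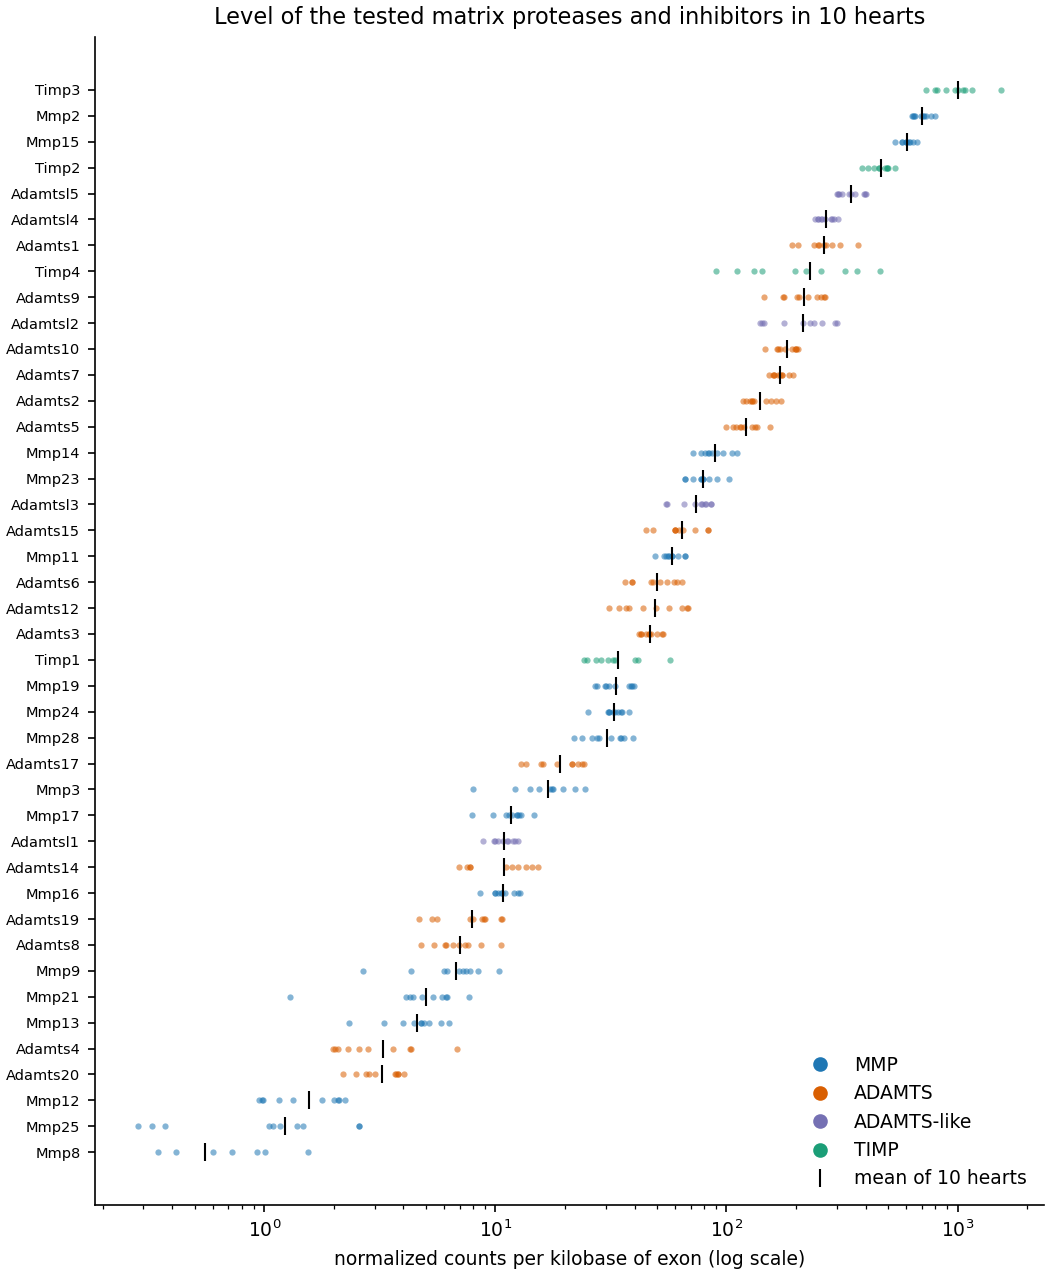
Normalized counts per kilobase of exon (x axis, log scale) of the 42 tested members in 10 hearts, ordered by mean; each point is a heart, each black bar the mean of 10, and hearts at 0 (3 for Mmp8) are not drawn. Timp3, Mmp2, Mmp15 and Timp2 lie at the top and Mmp12, Mmp25 and Mmp8 at the bottom.

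The other MMPs were far lower than Mmp2 and Mmp15. Mmp14, the membrane enzyme that activates pro-MMP2, stood at 89.0 ± 12.5 per kilobase. Mmp9, gelatinase B of neutrophils and macrophages, stood at 6.73 ± 2.13 per kilobase, a mean of only 21.3 normalized counts per heart. The 10 MMP genes clustered on chromosome 9 (mm10, 7272514 to 7699585) include collagenases, some of the stromelysins and a matrilysin. Only 4 of them reached the 10 counts over all hearts needed for a test (Mmp3, Mmp13, Mmp12 and Mmp8), and the highest mean was 30.1 normalized counts, for Mmp3. All 13 MMPs outside the cluster were tested, with a median of 113.1 normalized counts, not divided by length. The lowest of them, Mmp25, had a mean of 4.48, so some lay below Mmp3.

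The 9 members not tested were near or at 0. Mmp27 had 10 counts over the 10 hearts and fell below the limit once counts were rounded. Adamts13, the protease that cleaves von Willebrand factor and is made mainly in liver, had 8.0 counts, Adamts18 had 5.0, Adamts16 4.0, Mmp20 2.5 and Mmp10 1.5. Mmp1a, Mmp1b and Mmp7 had no count in any library, which allows up to 3 counts per library at totals of 16448090.5 to 24263085.5 counts in genes.

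Before the comparisons, the libraries were checked. Counts in genes did not separate the genotypes (exact two-sided permutation test, p = 0.119, n = 5 and 5). Sod2, the target of the hairpin in utero, stood at 10573 ± 588.3 normalized counts in the controls (SD, n = 5) against 10781 ± 449.2 in iSOD2 mice (two-sided exact permutation p = 0.532), so its adult level could not be used to check the genotype labels. Markers of ventricular cardiomyocytes were abundant in all hearts. The summed level of 6 hepatocyte markers ran from 80.04 to 8438 normalized counts in controls and from 4104 to 17506 in iSOD2 hearts, and none of the 6 was at 0 in all hearts. Their mean log2 level was 1.93 higher in iSOD2 hearts (exact permutation p = 0.0397, adjusted over 12 lists 0.405). Atrial cardiomyocyte markers were 1.16 higher (exact permutation p = 0.135), fibroblast markers 0.13 higher (p = 0.0714) and macrophage markers 0.16 lower (p = 0.135), each at an adjusted 0.405. No list passed the adjustment between genotypes, and the part of these markers in the results below was not tested. In bulk tissue, fewer cells of a type and less RNA per cell cannot be told apart.

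The genotype comparison asked what remains in the adult heart of a loss of SOD2 confined to the embryo. A gene was called at an adjusted p of at most 0.05 and an absolute log2 fold change above 0.25. Timp3 (NM_011595, chromosome 10, mm10 86300412 to 86349505, + strand) was the only member called, and it rose. Its normalized counts were 3792, 4153, 3720, 5026 and 3399 in controls 1, 2, 3, 4 and 6, and 7178, 4574, 4919, 4716 and 5381 in iSOD2 mice 5, 7, 8, 9 and 10. Of the 5 controls, 4 lay below every iSOD2 heart, control 4 lay inside the iSOD2 range, and iSOD2 5 stood above all others. The means ± SD over 5 hearts were 4018 ± 624.3 and 5354 ± 1064, and the log2 fold change was 0.41 with a standard error of 0.126 (95% interval 0.17 to 0.66, DESeq2 adjusted p = 0.0255). Of the 42 members tested, 20 were abundant enough for an adjusted p, and 1 was called, beside 2.96% of all genes with an adjusted p.

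Timp3 was higher in iSOD2 hearts in every fit, but the size of the difference varied and the call did not always hold. The log2 fold change was 0.26 in males, 0.47 in females, 0.26 in litter A and 0.51 in litter B. Only the fit of males called it (DESeq2 adjusted p = 0.0318). The DESeq2 adjusted p was 0.9997 in females, 0.0929 in litter A and 0.645 in litter B. The standard error was 0.304 in females and 0.255 in litter B. With the length trend removed it was 0.46 and called (DESeq2 adjusted p = 0.0351). With the GC trend removed as well it was 0.46 and not called (0.051). With edgeR, which called 0 of all genes between genotypes, the adjusted p of Timp3 was 0.154. With litter as a covariate, a fit added after the data were seen, it was 0.103. With sex and litter both as terms the log2 fold change was 0.37 and the adjusted p 0.205. Both fits with litter called Adamts15 and not Timp3. Leaving out control 1, 2, 3 or 6 or iSOD2 5 or 10 gave log2 fold changes of 0.29 to 0.43 and adjusted p of 0.0786 to 0.202 in DESeq2, so the call was lost in each case, whereas it was kept without any of the other 4 hearts. Without iSOD2 5 the log2 fold change was 0.29. Syn3, whose gene encloses Timp3 on the opposite strand and shares 1733 annotated exon bases with it, had 227.6 and 227.9 normalized counts in control and iSOD2 hearts, 4.86% of the Timp3 level overall (the counting stated no strand setting).

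Timp4, the most heart-restricted TIMP, was the most variable inhibitor and was not called. Its normalized counts were 157, 313, 186, 458 and 200 in controls 1, 2, 3, 4 and 6 and 654, 278, 127, 362 and 519 in iSOD2 mice 5, 7, 8, 9 and 10. Both genotypes spanned low and high hearts, and the log2 fold change of 0.56 had a standard error of 0.469 (DESeq2 adjusted p = 0.535), with -0.21 in litter A, 0.86 in litter B and 0.29 without iSOD2 5. Syn2, whose gene encloses Timp4 on the opposite strand, stood at 19.4% of the Timp4 level. Across the 10 hearts Timp4 followed Timp3 with Pearson's r = 0.72 (permutation p = 0.0161, adjusted over 6 TIMP pairs 0.0965) and Spearman's rho = 0.68 (permutation p = 0.035, adjusted 0.21), and r was 0.57 without control 6 and iSOD2 5 and 0.73 within genotypes. The pair did not pass the correction.

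The other TIMPs gave no genotype call. Timp2 stood at 1751 ± 146.2 in control and 1614 ± 168.6 in iSOD2 hearts (SD, n = 5 each, log2 fold change -0.12, 95% interval -0.28 to 0.04, DESeq2 adjusted p = 0.45). With litter as a covariate the log2 fold change was also -0.12 and the DESeq2 adjusted p 0.144. Within each litter the iSOD2 hearts lay below the controls in Timp2. The ranges were 1401 to 1481 against 1569 to 1647 in litter A and 1650 to 1788 against 1795 to 1944 in litter B. Mmp15 and Adamts9 also separated within each litter, and the share of all genes that did so was not counted. Timp1, the inducible inhibitor that rises in injured and fibrotic hearts, was at 35.3, 23.9, 28.8, 36.5 and 25.3 normalized counts in controls 1, 2, 3, 4 and 6 and at 22.0, 21.2, 50.3, 28.4 and 26.9 in iSOD2 mice 5, 7, 8, 9 and 10. Only iSOD2 8 lay outside the control range on the high side, and the log2 fold change was -0.02 with a 95% interval of -0.58 to 0.54. Syn1, whose gene encloses Timp1 on the opposite strand, had a mean 95.5% of that of Timp1, though their annotated exons share no base.

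**Figure D2:**
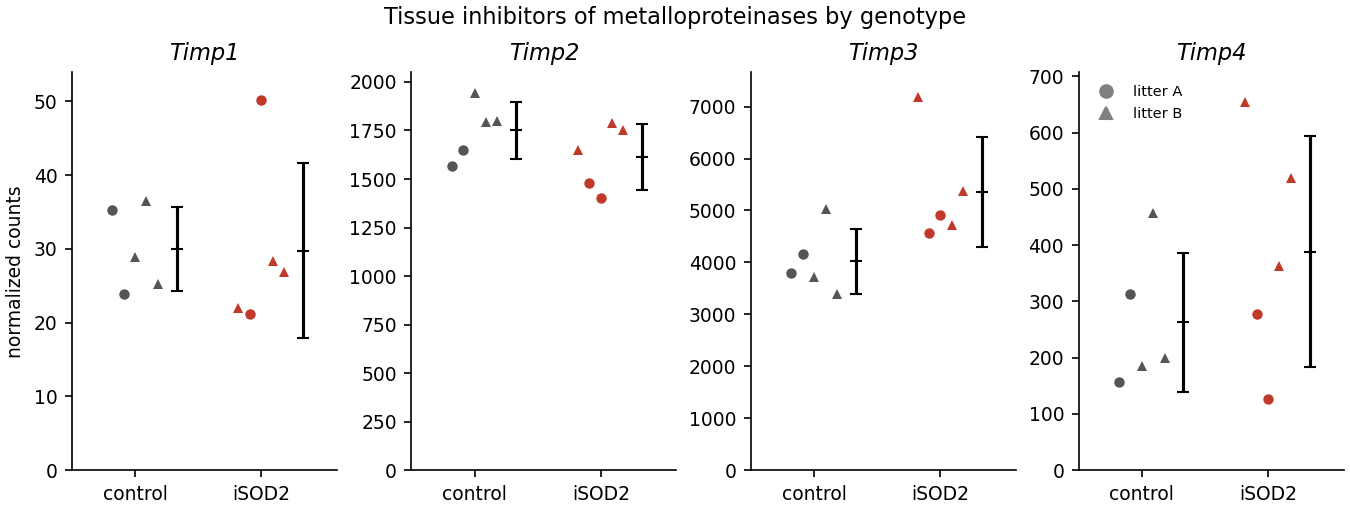
Normalized counts (y axis) of the 4 TIMP genes in 5 control and 5 iSOD2 hearts; circles are litter A, triangles litter B, and the black bar and whiskers are the mean ± SD of 5 hearts. Timp3 lies higher in iSOD2 hearts with control 4 in their range, and Timp4 overlaps throughout.

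Among the proteases, no member was called between genotypes, and the lowest log2 fold changes among those averaging 50 or more normalized counts were those of ADAMTS genes. Of the scarcer genes, the aggrecan-cleaving Adamts4 had 26.2 ± 10.7 in control and 15.1 ± 4.29 in iSOD2 hearts (SD, log2 fold change -0.81, with no adjusted p in DESeq2 at this level and 0.202 in edgeR), and Mmp25 one of -0.66 (standard error 0.69). Adamts15, a proteoglycan-degrading protease, was the nearest to a call. It had 494, 492, 431, 369 and 353 normalized counts in controls 1, 2, 3, 4 and 6 and 285, 354, 356, 384 and 266 in iSOD2 mice 5, 7, 8, 9 and 10. Controls 1, 2 and 3 lay above all iSOD2 hearts and controls 4 and 6 within their range. The log2 fold change was -0.38 with a standard error of 0.128 (DESeq2 adjusted p = 0.0502). The adjusted p was 0.0475 with TMM scaling, 0.0116 with litter as a covariate, 0.0218 with sex and litter as terms, and 0.0262, 0.0223 and 0.027 without control 4, control 6 or iSOD2 9. It was 0.163 with edgeR, 0.281 with each library's trend with exon length removed (log2 fold change -0.31) and 0.407 with the GC trend removed as well (-0.28).

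Mmp15 was the one member whose genotypes did not overlap. It had 2662, 2603, 2861, 2694 and 2757 normalized counts in controls 1, 2, 3, 4 and 6 and 2589, 2304, 2465, 2470 and 2567 in iSOD2 mice 5, 7, 8, 9 and 10. All iSOD2 hearts were lower, but by little, with a log2 fold change of -0.13 and a standard error of 0.0475 (DESeq2 adjusted p = 0.0742). With length and GC trends removed it was -0.05 (adjusted p 0.82). Members without overlap were 1 of 42, or 2.38%, beside 3.77% of all genes tested. Mmp2, the most abundant protease, ran from 1962 to 2440 in controls and from 1943 to 2340 in iSOD2 hearts, and its log2 fold change was -0.05 (95% interval -0.20 to 0.09).

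The remaining proteases named for size of change overlapped between genotypes. Adamts14, a procollagen N-propeptidase, had a log2 fold change of -0.35 (standard error 0.243, mean 56.1 normalized counts) and Adamts12, a protease of cartilage matrix, one of -0.29 (standard error 0.262, DESeq2 adjusted p = 0.569). Mmp23, a membrane-anchored MMP, had one of 0.23 (standard error 0.136). Of the abundant ADAMTS genes, the versican-cleaving Adamts1, Adamts5 and Adamts9 had log2 fold changes of -0.10, -0.21 and -0.23, and Adamts2, the main procollagen I N-propeptidase, one of -0.22, with DESeq2 adjusted p of 0.746, 0.178, 0.362 and 0.166. Adamts7 and Adamts10, also abundant, were at 0.05 and -0.02 (DESeq2 adjusted p = 0.737 and 0.941). Without iSOD2 9, Adamts5 was called as lower (log2 fold change -0.28, DESeq2 adjusted p = 0.0415). With litter as a covariate Adamts9 was at -0.24 (DESeq2 adjusted p = 0.0301). With sex and litter as terms it was at -0.21 (0.0494), and both values were under the fold threshold. Within each litter its iSOD2 hearts lay below its controls. The ranges were 871.2 to 1058 against 1064 to 1241 in litter A and 1218 to 1487 against 1539 to 1598 in litter B. How many of all genes separated in this way was not counted.

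By family, 14 of the 42 tested members had a log2 fold change above 0 and 28 below, with a median of -0.06 beside -0.002 for all genes. The ADAMTS proteases carried most of this, with 13 of 16 below 0 and a median of -0.21, while the 17 MMPs had a median of -0.05 and the 5 ADAMTS-like genes one of -0.02. An unadjusted p under 0.05 was found for 6 members, or 14.3%, close to 13.2% of all genes tested. ADAMTS transcripts are long, with a median exon length of 6004 bp against 2646 bp for all genes. Once each library's trend with exon length was removed, the ADAMTS median was -0.13 with 11 of 16 below 0, and with the trend in GC content removed as well it was -0.12.

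**Figure D3:**
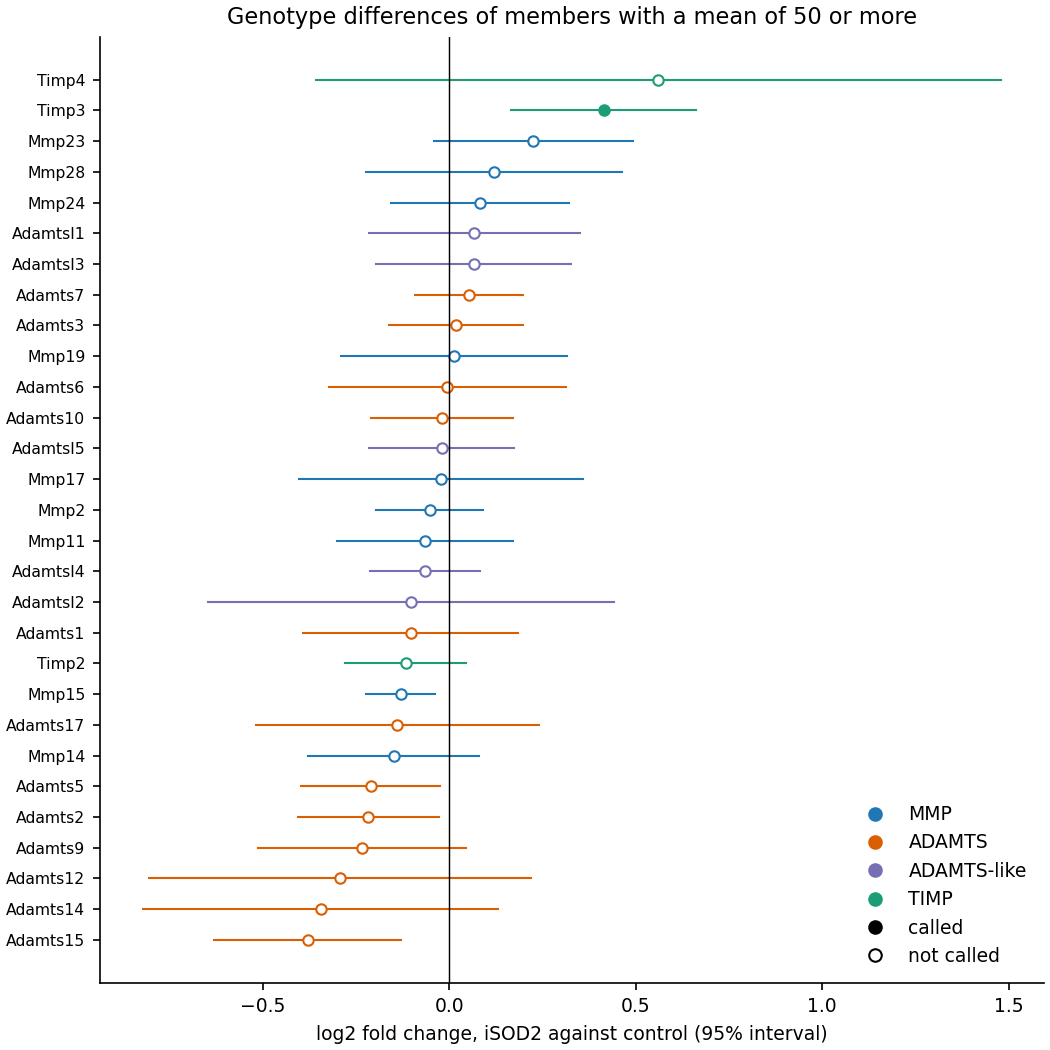
Log2 fold change of iSOD2 against control hearts (x axis) with 95% intervals for the 29 members averaging 50 or more normalized counts, coloured by family. Timp3 is the filled point, the only one called; the ADAMTS genes fill most of the lower end.

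Summed per kilobase, the inhibitors took a larger share in iSOD2 hearts. The TIMP share of all TIMP, MMP and ADAMTS transcripts was 31.9%, 34.3%, 31.9%, 38.2% and 29.6% in controls 1, 2, 3, 4 and 6 and 46.5%, 36.0%, 36.4%, 36.0% and 40.3% in iSOD2 mice 5, 7, 8, 9 and 10. Controls 1, 2, 3 and 6 lay below every iSOD2 heart, and control 4 lay within their range. The means were 33.2% ± 3.28 and 39.0% ± 4.54 (SD, n = 5 each), a difference of 5.85 percentage points given with no test because the sum rests on members chosen with earlier results known. The difference was 3.09 points in litter A, 7.69 in litter B, 3.32 in males and 7.12 in females. Timp3 made up 52.1% to 66.3% of the TIMP sum in each heart, and without it the TIMP sum was 704.9 ± 100.7 in control and 755.7 ± 171.2 per kilobase in iSOD2 hearts, a difference within the spread. The MMP sum was 1723 ± 82.6 and 1647 ± 71.6 per kilobase, and the ADAMTS sum 1416 ± 83.3 and 1294 ± 98.5.

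**Figure D4:**
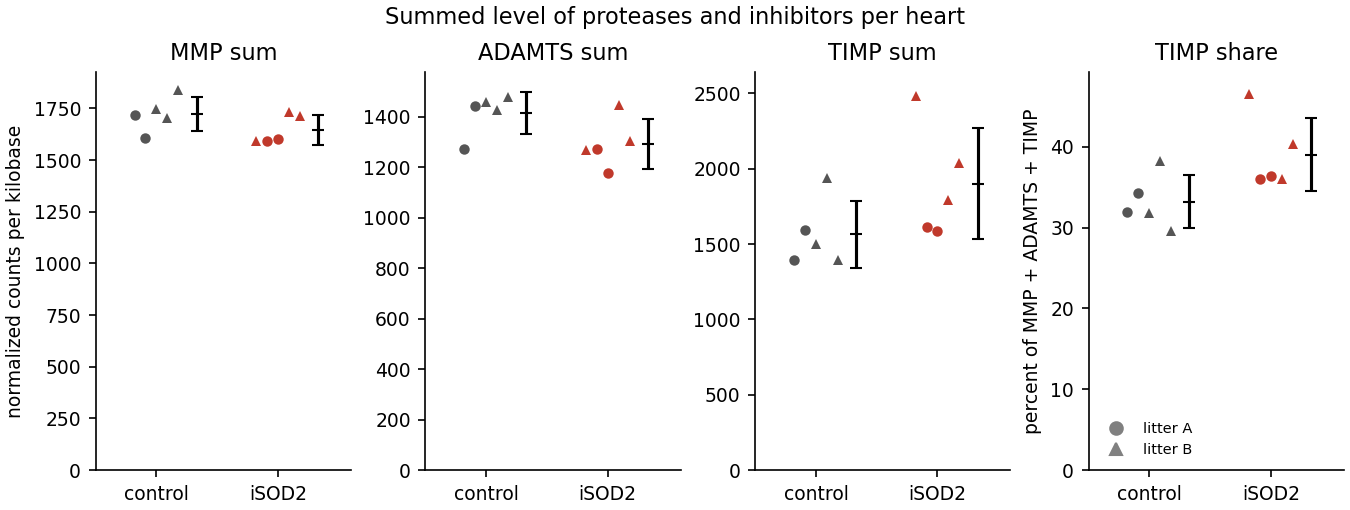
Normalized counts per kilobase (y axis) summed over MMPs, ADAMTS proteases and TIMPs in each heart, and the TIMP share of the 3 sums in percent (right panel); circles are litter A, triangles litter B, and bars the mean ± SD of 5 hearts. The TIMP share lies higher in iSOD2 hearts with control 4 in their range, and the TIMP sums overlap for controls 2 and 4.

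Litter moved more members than genotype did. In a fit with genotype as a covariate, 7 of the 40 members with an adjusted p were called between litters, 5 higher and 2 lower in litter B, beside 3.5% of all genes. All 7 were ADAMTS or ADAMTS-like genes. Adamtsl2, which binds fibrillin-1 and is mutated in geleophysic dysplasia, had 452, 467, 458 and 574 normalized counts in the 4 hearts of litter A (controls 1 and 2, iSOD2 7 and 8) and 738, 949, 970, 774, 691 and 833 in litter B (controls 3, 4 and 6, iSOD2 5, 9 and 10). The litters did not overlap, in either genotype. The log2 fold change was 0.75 with a standard error of 0.108 (DESeq2 adjusted p = 2.04e-09, edgeR adjusted p = 0.00347).

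Another 3 of the called genes separated the litters completely. Adamts17, which like Adamtsl2 is linked to a short-stature syndrome of the fibrillin network, ran from 77.7 to 96.1 normalized counts in litter A and from 110.6 to 144.8 in litter B (log2 fold change 0.60, DESeq2 adjusted p = 0.00108). Adamtsl5 ran the other way, from 1272 to 1429 in litter A and from 1062 to 1231 in litter B (-0.28, DESeq2 adjusted p = 0.00114). Adamts6, a protease of heart development and cell-matrix contacts, also fell, from 386.2 to 447.6 in litter A to 253.9 to 360 in litter B (-0.46, DESeq2 adjusted p = 0.00142).

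Adamts9 was at 1064, 1241, 1058 and 871 normalized counts in litter A and 1593, 1598, 1539, 1218, 1487 and 1348 in litter B. Only iSOD2 5 of litter B lay inside the range of litter A, and the log2 fold change was 0.47 (standard error 0.0767, DESeq2 adjusted p = 3.56e-07). Adamts12 (0.54, DESeq2 adjusted p = 0.0184) and Adamtsl3 (0.35, DESeq2 adjusted p = 0.0193) were called less firmly, with edgeR adjusted p of 0.107 and 0.0718. The call of Adamts12 was lost without control 1, 2, 3 or 4 or iSOD2 8, 9 or 10, at log2 fold changes of 0.44 to 0.57 and adjusted p of 0.0502 to 0.27, and that of Adamtsl3 without control 1, 4 or 6 or iSOD2 7 or 10, at 0.26 to 0.33 and 0.0561 to 0.201. With sex as a further term, both lost their call (adjusted p 0.128 and 0.145).

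**Figure D5:**
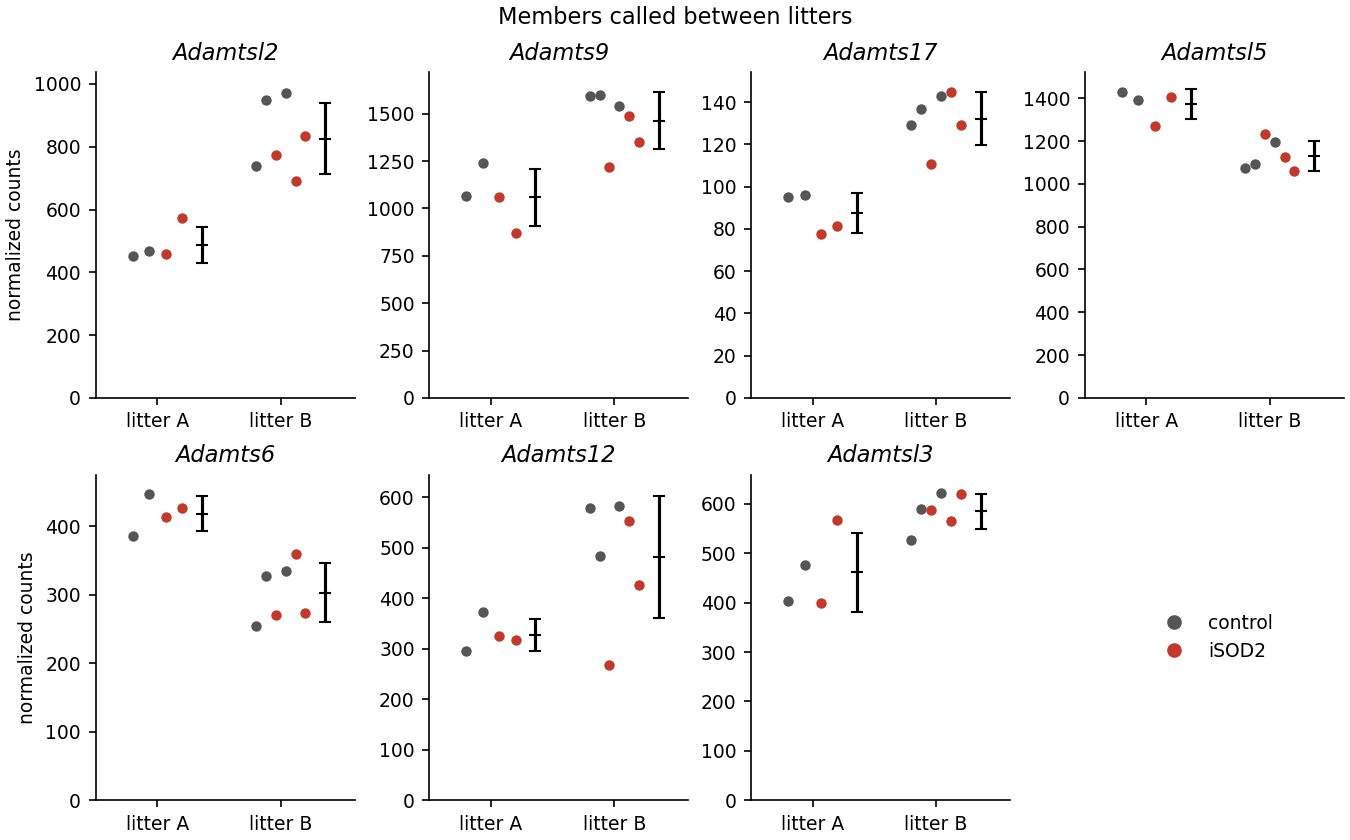
Normalized counts (y axis) of the 7 members called between litters in the 4 hearts of litter A and the 6 of litter B; grey points are control and red points iSOD2 hearts, with the mean ± SD beside each litter. Adamtsl2, Adamts17, Adamtsl5 and Adamts6 do not overlap between litters.

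Timp2 separated the litters too. It had 1569, 1647, 1481 and 1401 normalized counts in litter A and 1944, 1795, 1801, 1650, 1788 and 1751 in litter B, and the lowest heart of litter B lay just above the highest of litter A. Its log2 fold change of 0.23 (DESeq2 adjusted p = 0.00108) was under the fold threshold, so that it was not called. It was called with sex as a further term (0.27, adjusted p 0.0005) and without control 2 (0.25, adjusted p 0.00352). With Mmp19, which was higher in litter B, and Mmp3, which was lower, 7 of the 42 tested members did not overlap between litters, or 16.7%, beside 4.03% of all genes tested. Timp3 and Timp4 overlapped between litters, with log2 fold changes of 0.15 (DESeq2 adjusted p = 0.781) and 0.78 (0.405).

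Several cell-type markers moved with litter as well. Markers of ventricular cardiomyocytes were 0.14 lower in litter B on the mean log2 scale (exact permutation p = 0.00952, adjusted over 12 lists 0.0381), their summed level running from 1496974 to 1635185 in litter A and from 1271840 to 1472592 in litter B. Neutrophil markers were 0.67 lower (exact permutation p = 0.00476, adjusted 0.0381, sums of 79.1 to 86.5 and 30.8 to 61.7) and adipocyte markers 0.71 higher (exact permutation p = 0.00952, adjusted 0.0381, sums of 2437 to 3890 and 2579 to 4643). Both lists held scarce genes. The neutrophil markers averaged from 0.179 (Ly6g) to 40.6 (Csf3r) normalized counts. Adipoq, Plin1 and Cidec averaged 2.23, 1.62 and 3.13, so the adipocyte sums were almost all Fabp4, which averaged 3628. Smooth muscle markers were 0.23 higher (exact permutation p = 0.0238, adjusted 0.0714), with sums of 7326 to 8336 and 9608 to 13068 that did not overlap, and endothelial markers 0.11 higher (exact permutation p = 0.0333, adjusted 0.0799). Of these, 3 of the 5 smooth muscle markers and 4 of the 6 endothelial markers were higher in litter B. Acta2 weighed most in the smooth muscle sums, averaging 6345 normalized counts beside 1992 for Smtn, the next highest. Hepatocyte markers were 1.90 higher in litter B (exact permutation p = 0.0905, adjusted 0.181). Fibroblast markers differed by 0.04 (exact permutation p = 0.619). No marker of these lists was at 0 in every heart, and their part in the litter differences was not tested.

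Sex called no member, with genotype as a covariate, among 42 with an adjusted p, beside 0.42% of all genes. An unadjusted p under 0.05 was found for 5 members in DESeq2 and 5 in edgeR, which also called none. In DESeq2 that was 11.9% of the members and 6.6% of all genes. Adamts15 came nearest, at 431 ± 63.1 in males and 325.8 ± 46.7 in females (SD, n = 5 each, log2 fold change -0.34 for females against males, DESeq2 adjusted p = 0.0767). All 5 females exceeded all 5 males in Adamtsl3 (474.1 ± 74.1 in males and 597.5 ± 23.3 in females, DESeq2 adjusted p = 0.143), although 4 of the females belonged to litter B. It was the only member whose sexes did not overlap, 1 of 42 or 2.38%, beside 1.82% of all genes tested. Adamtsl2 was called higher in females without iSOD2 8 (log2 fold change 0.66) or iSOD2 9 (0.75) and with litter as a further term (0.34, DESeq2 adjusted p = 0.0154). Adamts15 was called lower in females without iSOD2 8 (-0.40) and Adamtsl3 higher without iSOD2 9 (0.45). The genotype effect was not shown to differ between the sexes for any member: 0 of 42 passed the interaction test, as did 0% of all genes, and 0 members had an unadjusted p under 0.05 in DESeq2 or edgeR.

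The proteins that activate, clear or are cut by these enzymes were counted in 6 lists of 78 genes, 75 of them tested and 47 with an adjusted p. Between genotypes 0 were called higher and 8 lower, beside 2.96% of all genes, of which 120 were higher and 161 lower. The lists were chosen with earlier results of these data known. Their counts of calls, here and between litters below, are therefore descriptions and no test against all genes. Hspg2, which encodes the basement membrane proteoglycan perlecan, fell from 19726 ± 2514 to 13392 ± 802.4 normalized counts (SD, n = 5 each, log2 fold change -0.56, DESeq2 adjusted p = 1.13e-07). Lrp1, the endocytic receptor that clears several MMPs, ADAMTS proteases and TIMPs, fell by 0.43 on the log2 scale (DESeq2 adjusted p = 0.000132). The fibrillar procollagen genes Col1a1 and Col5a1 fell by 0.55 and 0.40 (DESeq2 adjusted p = 8.58e-05 and 0.0016). The hairpin cassette lies at the Col1a1 locus of the iSOD2 mice only, so its part cannot be told apart from genotype and was not tested. The microfibril genes Fbn2, Ltbp3 and Ltbp4 fell by 0.41, 0.31 and 0.29, and the membrane protease gene Adam19 by 0.52. With the length trend removed, 4 of the 8 were called (Hspg2, Lrp1, Col1a1 and Col5a1), with length and GC trends removed 2 (Hspg2 and Col1a1), and with edgeR 0, although 21 of the 75 had an unadjusted p under 0.05 there. Calls over all genes fell too, from 281 to 116, 89 and 0 in these 3 fits. In edgeR 2718 of all 17728 genes tested had an unadjusted p under 0.05. In the lists, 5 genes were called without control 3 or control 6, and 13 without iSOD2 9.

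By list, the median log2 fold change between genotypes was 0.04 for the 15 tested genes of pro-enzyme activation and 0.04 for the 10 of other inhibitors and clearance. It was -0.26 for the 16 proteoglycan and adhesive substrates, -0.16 for the 13 procollagens and their processing enzymes, -0.08 for the 11 microfibril genes and -0.04 for the 10 membrane ADAM proteases, beside -0.002 for all genes. With the length trend removed it was -0.17 for the substrates, -0.11 for the procollagens and -0.10 for the microfibril genes. The genes with the largest change of their list included, without a call, Serpinf2 and Pzp, protease inhibitors of plasma made in liver, at 1.30 ± 0.761 and 1.23 ± 0.727 (standard errors), alongside the hepatocyte markers above. In Ltbp2 the log2 fold change was -0.44, and Hapln1 (2.11 ± 1.44) and Mep1b (-1.28 ± 2.03) had means under 2 normalized counts in both genotypes.

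Between litters the same lists had 9 genes called higher and 1 lower in litter B, beside 3.5% of all genes, of which 395 were higher and 153 lower. Among them were the collagen genes Col3a1 (0.32, DESeq2 adjusted p = 0.00594) and Col5a2 (0.26, DESeq2 adjusted p = 0.0148), the fibronectin gene Fn1 (0.36, DESeq2 adjusted p = 0.0109), and Mfap5 of the microfibrils (0.56, DESeq2 adjusted p = 0.000127). Papln, an ADAMTS-related matrix protein, was also higher (0.34, DESeq2 adjusted p = 0.00343), and Fbln1, a cofactor of ADAMTS1, was the one lower (-0.35, DESeq2 adjusted p = 5.78e-06). The median log2 fold change of the 75 genes was 0.20, beside -0.004 for all genes.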

How the data were processed

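RNA depleted of ribosomal RNA was sequenced from 10 hearts, and genotype, sex and litter were taken from the labels. The authors trimmed reads, aligned them with STAR to mm10 (GRCm38) and summed them with HOMER over the exons of 1 transcript per gene, with no strand option stated. The deposited values are expected counts in steps of 0.5, not normalized, and the deposited table also holds each transcript's exon length and coordinates. Counts in genes ran from 16448090.5 to 24263085.5 per library, and floors of 3 counts cover counting error only.

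Counts were rounded, genes with fewer than 10 counts over all libraries were left out (17728 kept), and DESeq2 1.42.0 in R 4.3.3 was fitted with Wald tests and Benjamini-Hochberg adjustment, which gave no adjusted p for genotype below a mean of 160.5. Sex and litter were tested with genotype as a covariate. edgeR 4.0.16, TMM scaling, other filters, length and GC trends (GC from GENCODE M21), further covariates and leaving out each mouse were alternatives, and litter as a covariate for genotype was added after seeing the data. Scripts were tested on simulated data. Marker lists were compared as means of log2(normalized counts + 1). Members and lists were chosen with earlier results of these data known. Described were called members, the TIMPs, the 10 highest per kilobase, the 3 largest rises and 3 largest falls for genotype among members with a mean of at least 50, and in the lists the called genes for genotype and the largest change of each. Each replicate was a separate mouse.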

Additional observations from a re-analysis of the deposited data

Results flagged for a closer look

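Of 40 groups of 5 hearts tested for a single distant value, 2 had one, and chance gives about 2. Adamtsl3 had 398.4 normalized counts in iSOD2 7 and 565 to 620.2 in the other 4 iSOD2 hearts. iSOD2 7 is a male of litter A. Timp1 had 50.3 normalized counts in iSOD2 8 and 21.2 to 28.4 in the other 4 iSOD2 hearts.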

How the results depend on the processing

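Across 25 described log2 fold changes and 501 alternatives, 39 turned sign, 17 of these in males, females or 1 litter alone. Calls were not scored in those single-sex and single-litter fits, where Timp3 kept its call in males only. Among the other alternatives 26 lost a call and 6 gained one. None of the 39 turned signs belonged to a called value, and they came from 11 genes, among them Timp4 and Adamts12. With the length trend removed Adamts6 was at 0.0744, and with length and GC trends removed Adamts6 was at 0.0425, Adamtsl5 at 0.0227 and Adamtsl4 at 3.11e-05. When a mouse was left out, the log2 fold change ran from -0.195 to 0.0324 for Adamts1, -0.101 to 0.097 for Adamts6, -0.232 to 0.0312 for Adamtsl2, -0.0183 to 0.16 for Adamtsl3, -0.0773 to 0.0356 for Adamtsl5 and -0.308 to 0.0772 for Timp1. The number of members called between genotypes, 1 as reported, was 2 with TMM scaling, 0 with edgeR (6 at an unadjusted p under 0.05), 0 with length and GC trends removed and 0 to 3 when a mouse was left out (0 without control 1, 2 or 3 or iSOD2 5 or 10, 2 without control 4, 3 without iSOD2 9, and Adamts15 in place of Timp3 without control 6). The 8 genes called in the pathway lists became 4 with the length trend removed, 2 with length and GC trends removed, 0 with edgeR (21 at an unadjusted p under 0.05) and 5 to 13 when a mouse was left out (5 without control 3 or 6, 13 without iSOD2 9). For sex, 0 members became 1 (Adamtsl2) with genotype, sex and litter as terms and 0 to 2 when a mouse was left out, Adamtsl2 and Adamts15 without iSOD2 8 and Adamtsl2 and Adamtsl3 without iSOD2 9. Litter calls ran from 5 to 9. Over all genes, genotype calls were 281 as reported, 116 with the length trend removed, 89 with length and GC trends removed and 0 with edgeR. Apart from effects of fewer samples, the cause of these changes was not tested. Mice could not be paired by number, since the genotypes share none, but blocking by litter was possible, and genotype fits with litter, or with sex and litter, called Adamts15 in place of Timp3. Depth limits the scarce members, with wide intervals for Mmp8, Mmp12 and Mmp25 and no test for 9.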
